A study of Mus musculus with 47 samples.

Results

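Mitochondrial ribosomal protein genes were described in undifferentiated and neuronally differentiated P19 cells, a mouse embryonal carcinoma line. A gene was a member when a RefSeq protein-coding (NM) transcript with a 3′ UTR in the tables had a symbol that starts with Mrpl or Mrps and a number, and each gene was represented by its best covered transcript. This gave 78 of 18913 genes. Of these, 72 passed the filter on low reads, and 72 also reached the minimum set for conversion rates, a mean coverage of 1000 T positions. The 6 members left out of the read test were Mrpl21, Mrpl23, Mrpl48, Mrps18b, Mrps21 and Mrps36.

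The study used SLAM-seq, in which 4-thiouridine (4sU) enters newly made RNA and is read as T>C conversions in 3′ end sequencing. D0 cells, of wild-type genotype and undifferentiated, made up 24 libraries, and D6 cells, of the same genotype and grown for 6 days in NDiff 227 medium with 500 nM retinoic acid, made up 23. In the catabolic assay cells were labeled for 15 h and then chased without 4sU, and in the anabolic assay label was added and followed, at 4 time points named T0, T1, T3 and T9. There were 3 libraries in each group except for 2 at T3 of the D6 catabolic assay. The 4sU dose was 20 µM at D0 and 500 µM at D6. Dose and cell state therefore cannot be told apart in any labeling difference between states, or in the reads of libraries given 4sU. P19 is 1 line, and p-values here measure the spread between cultures of it.

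The mitochondrial ribosome translates the few proteins that mitochondrial DNA encodes, which are subunits of the respiratory chain and of ATP synthase. Its own proteins are encoded in the nucleus, made in the cytosol and imported, so that their mRNAs are ordinary nuclear transcripts. Mrpl genes encode proteins of the large subunit, where peptide bonds are formed, and Mrps genes encode proteins of the small subunit, which reads the mRNA. Some of these proteins have bacterial counterparts and others are found in mitochondria alone. A few symbols mislead: Mrps30 and Mrps18a belong to the large subunit, and Mrps36 belongs to the 2-oxoglutarate dehydrogenase complex. With these moved, the large subunit had 51 members and the small subunit 26.

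Depth ran from 1489528 to 11677046 reads in 3′ UTRs per library. In the libraries without 4sU it ran from 5499405 to 7180848 at D0 and from 3602511 to 6977661 at D6. Neuronal markers summed to 1003 to 1362 CPM (read counts scaled to library size by TMM) at D0 and 12287 to 12814 at D6 without 4sU, and 10 of 10 passed the test as higher. Pluripotent cell markers summed to 2033 to 3727 CPM at D0 and 726 to 1066 at D6, with 4 of the 7 tested lower. Endoderm and mesoderm markers summed to 87.5 to 123.04 CPM at D0 and 5.57 to 19.4 at D6, with 1 of the 4 tested, Acta2, called lower. Glial markers summed to 169 to 290.0 and 182 to 210.1 CPM, and none of the 3 tested was called. In such bulk libraries fewer cells of a type and less RNA per cell cannot be told apart.

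Transcripts of mitochondrial ribosomal proteins made up a smaller part of the reads at D6 than at D0. In the 3 libraries without 4sU, the members summed to 10757, 13351 and 10961 CPM at D0 and to 6854, 8294 and 7304 CPM at D6. The highest D6 library lay below the lowest D0 library. The mean was 11690 CPM for D0 (SD 1442, n = 3) and 7484 CPM for D6 (SD 737, n = 3), a ratio of 1.56 of D0 to D6.

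The same order held in 8 of 8 pairs of D0 and D6 groups with the same assay and time point, none of which overlapped. The ratio of D0 to D6 was lowest at catabolic T3, at 1.27, and highest at catabolic T0, at 1.79. The lowest ratio rested on D6 replicate 14, the shallowest library, which stood apart: 44 of the 78 members had under 10 reads there, against 5 to 22 in the other D6 libraries, and the median over tested members was 7.25 CPM against 52.4 to 104 CPM. It summed to 9907 CPM and the remaining D6 library at catabolic T3 to 6206 CPM, and without it the ratio there was 1.65. With replicate 14 alone for D6 the ratio was 1.04. Single libraries carried other ratios too. D0 replicate 26, with 15063 CPM against 11861 and 11810 in its group, held up the highest, which was 1.64 without it, and its pluripotent cell markers summed to 3637 CPM against 2130 and 2302. D6 replicate 45, with 9743 CPM against 6552 and 6690, held down the ratio at anabolic T3, which was 1.37 and became 1.58 without it. Among the libraries without 4sU, D0 replicate 56, at 13351 CPM for the members and 3727 for pluripotent cell markers against 2144 and 2033, brought the ratio to 1.56 from 1.45. The part of the marker genes' cells in these sums was not tested. Leaving out a library was chosen after the data had been seen, and left no pair of groups overlapping. Over all libraries the sum was 9951 to 15063 CPM at D0 (median 10795) and 6206 to 9907 CPM at D6 (median 7224). Without TMM scaling the ranges were 10348 to 14120 and 5928 to 8159 CPM.

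**Figure D1:**
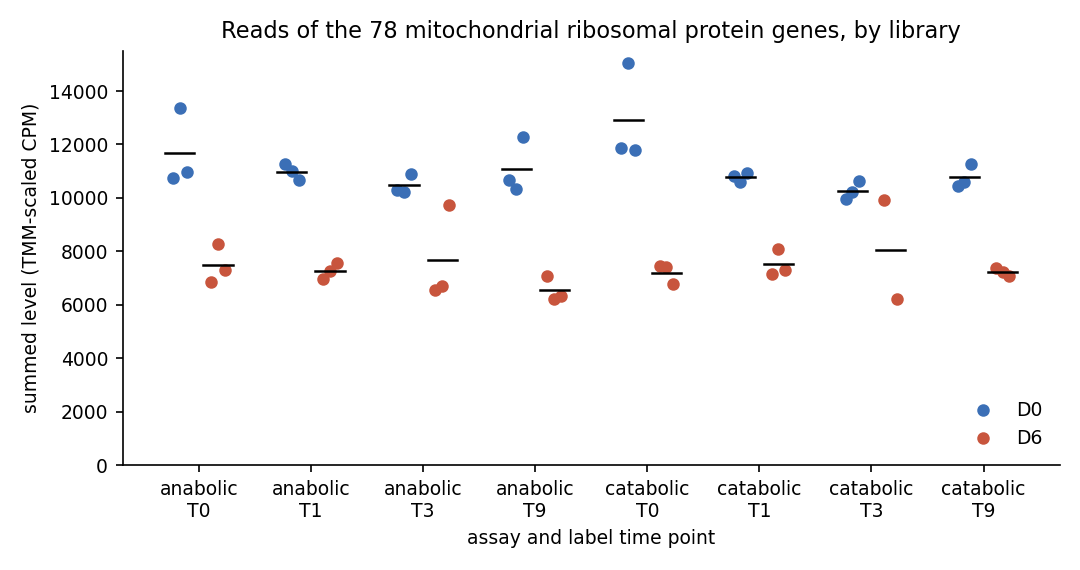
Summed reads of the 78 mitochondrial ribosomal protein genes in CPM (TMM scaled, linear axis from 0) in each of the 47 libraries, by state, assay and time point; points are libraries and horizontal lines are group means. The D6 libraries, at 6206 to 9907 CPM, lie below the D0 libraries, at 9951 to 15063 CPM.

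Gene by gene, 11 of 72 tested members were lower at D6 than at D0 without 4sU and 0 were higher (edgeR quasi-likelihood test, Benjamini-Hochberg adjusted over 11231 genes). Among all genes tested, 5.16% were called lower and 7.66% higher. At an unadjusted p under 0.05, 20 members were lower and 3 higher. DESeq2, which tested 77 members, called 13 lower and 1 higher. The median log2 difference was -0.54 over the members and 0.03 over all genes tested, with 57 members below 0 and 15 above. In 26 members every D6 library lay below every D0 library, against 16% of all genes, and in 3 every D6 library lay above, against 17.5%. The count of 11 fell to 5, 6 and 7 when D6 replicate 39, D6 replicate 37 or D0 replicate 56 of the unlabeled libraries was left out, and reached 12 without D0 replicate 26 of the 15 h libraries.

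Of the 8 members with the smallest p among those called, 7 belong to the large subunit, and 3 of these are described first. Mrpl12 (3′ UTR at chr11:120488435-120488754, plus strand, mm10), which forms the stalk, the flexible arm that recruits translation factors, and also binds the mitochondrial RNA polymerase, had 817, 1354 and 1000 CPM at D0 and 345, 508 and 315 CPM at D6. The groups were well apart, and the difference was -1.38 ± 0.28 on the log2 scale (SE, adjusted p = 0.00197, edgeR), or 2.60-fold lower. Mrpl10 (3′ UTR at chr11:97048336-97049213, plus strand), at the base of the stalk, had 283, 281 and 389 CPM at D0 and 122, 78.4 and 138 CPM at D6. Each D6 library was under the lowest of D0 (log2 -1.43 ± 0.35, adjusted p = 0.0084, edgeR). Mrpl11 (3′ UTR at chr19:4964780-4966995, plus strand), the other protein of the stalk base, had 269, 513 and 294 CPM at D0 and 179, 148 and 158 CPM at D6. It also did not overlap (log2 -1.08 ± 0.32, adjusted p = 0.0266, edgeR), but missed the threshold in 4 of 17 alternatives.

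Other members of the large subunit showed the same pattern. Mrpl45 (3′ UTR at chr11:97328569-97329920, plus strand), which lies near the exit of the peptide tunnel and ties the ribosome to the inner membrane, had 265, 335 and 330 CPM at D0 and 81.3, 85.5 and 152 CPM at D6. No D6 library came near the D0 libraries (log2 -1.48 ± 0.31, adjusted p = 0.00233, edgeR). Mrpl18 (3′ UTR at chr17:12911355-12911677, minus strand), whose relatives bind 5S RNA in other ribosomes, was even within groups, at 468, 460 and 446 CPM at D0 and 209, 260 and 198 CPM at D6. The difference was 1.97-fold (log2 -0.98 ± 0.27, adjusted p = 0.018, edgeR). Mrpl42 (3′ UTR at chr10:95480806-95480931, minus strand), a protein with no bacterial counterpart, had 157, 93.2 and 127 CPM at D0 and 47.6, 48.9 and 47.3 CPM at D6. Again no library overlapped (log2 -1.33 ± 0.38, adjusted p = 0.0231, edgeR). Mrpl42 missed the threshold in 5 of 17 alternatives and Mrpl18 in 2.

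Mrpl36 (3′ UTR at chr13:73331682-73332178, plus strand), a small zinc-binding protein of the large subunit, had the most negative fitted difference, on few reads. It had 22.0, 36.9 and 36.6 CPM at D0 and 0.478, 0.324 and 1.75 CPM at D6, where the counts were 2, 1 and 11 reads. All D6 values without 4sU were far under D0 (log2 -5.06 ± 1.28, adjusted p = 0.0105, edgeR). The gene was uneven at D6 elsewhere: over the other D6 libraries it ran from 0 to 50.2 CPM with a median of 0.878, against 10.99 to 40.3 CPM (median 22.9) in the other D0 libraries.

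From the small subunit, Mrps25 (3′ UTR at chr6:92169512-92175021, minus strand), a protein found in mitochondria alone, had the smallest p. It had 231, 273 and 185 CPM at D0 and 76.9, 77.1 and 78.8 CPM at D6. The D6 libraries were nearly equal to each other and below all of D0 (log2 -1.50 ± 0.32, adjusted p = 0.00238, edgeR). Its 3′ UTR overlaps that of Nr2c2 on the opposite strand, 1 of 5 members with such an overlap, while no member overlapped another gene on its own strand. The remaining members called lower were Mrpl38 (log2 -1.66, adjusted p = 0.0347, edgeR; missed in 5 of 17 alternatives), Mrpl4 (log2 -1.49, adjusted p = 0.0348, edgeR) and Mrps34 (log2 -1.18, adjusted p = 0.0297, edgeR). Mrpl12, Mrpl45, Mrps25, Mrpl10 and Mrpl36 passed the threshold in 17 of 17 alternatives. They were the 5 members still called without D6 replicate 39, so that Mrpl4 and Mrps34 were not. Other alternatives were not counted for Mrpl4 and Mrps34.

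**Figure D2:**
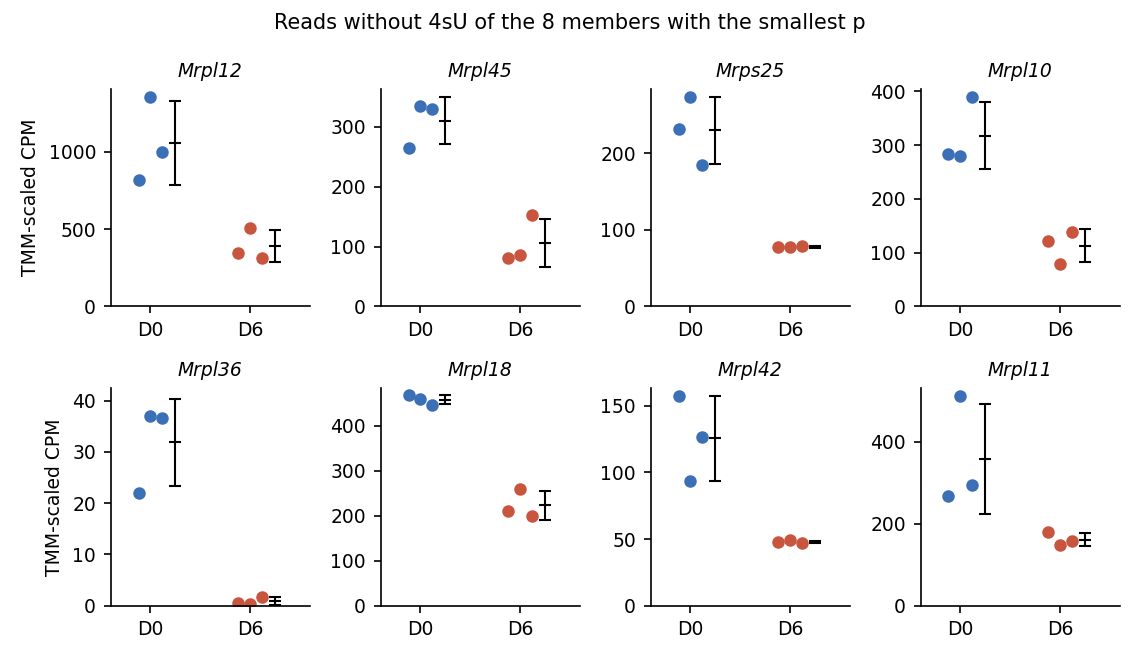
Reads in CPM (TMM scaled, linear axis from 0, scaled for each gene) of the 8 members with the smallest p among those called lower at D6, in the 3 D0 and 3 D6 libraries without 4sU; points are libraries, and the marks beside them are the mean and SD. In all 8 genes the D6 points lie below the D0 points, and Mrpl36 is near 1 CPM at D6.

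Mrpl34, the member with the most reads, was lower in the other libraries but was not called without 4sU. Over the 47 libraries this protein of the large subunit had 203772 reads, followed by Mrpl12 with 168979 and Mrpl18 with 88759. Mrpl34 had 911, 1238 and 707 CPM at D0 and 836, 1087 and 601 CPM at D6. Its groups overlapped (log2 -0.11 ± 0.26, adjusted p = 0.867, edgeR), and the sign turned without D6 replicate 39 or D0 replicate 56 (log2 0.08 in each). Its mean was lower at D6 in 8 of 8 pairs of groups, from 781 against 758 CPM at anabolic T3 to 1208 against 558 CPM at catabolic T0, and over the other 41 libraries the difference was -0.41 ± 0.11 on the log2 scale (adjusted p = 0.00142, edgeR). The fewest reads were those of Mrpl21, with 0, Mrpl48, with 89, and Mrps21, with 96, which are too few to describe.

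Of the members with roles of their own other than Mrpl12, the 4 that could be tested without 4sU were not called. Mrpl58, a peptidyl-tRNA hydrolase that is built into the large subunit and rescues stalled ribosomes, had 320, 640 and 275 CPM at D0 and 159, 239 and 204 CPM at D6 (log2 -0.97 ± 0.38, adjusted p = 0.1003, edgeR). Its groups did not overlap, and it passed the threshold in 2 of 17 alternatives. Mrps30 had a difference of -0.80 ± 0.51 on the log2 scale (adjusted p = 0.358, edgeR). The Mrps18 genes are 3 relatives of 1 bacterial protein. Mrps18a had a difference of -0.54 ± 0.37 on the log2 scale (adjusted p = 0.411, edgeR), and Mrps18b was below the filter on reads, as was Mrps36. In the other 41 libraries, described further on, Mrpl58 (log2 -0.50 ± 0.14, adjusted p = 0.00334, edgeR), Mrps30 (log2 -0.89 ± 0.20, adjusted p = 0.000177, edgeR) and Mrps18a (log2 -0.86 ± 0.20, adjusted p = 0.000323, edgeR) were called lower. So was Mrps18b there (adjusted p = 0.00122, edgeR), on 160 reads in 21 D0 libraries and 1 read in 20 D6 libraries. Without replicate 14 of D6, the differences of Mrpl58 and Mrps18a in this set were -0.75 and -1.35 on the log2 scale.

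Mrps18c was uneven at D0, with 34.2, 0.430 and 9.15 CPM, against 43.7, 61.5 and 38.03 CPM at D6 (log2 1.77 ± 1.00, adjusted p = 0.283, edgeR). Its 3′ UTR is 59 bases long. Mrpl41, singled out after its values were seen, had the highest positive difference, with 5.04, 9.02 and 10.7 CPM at D0 and 42.5, 40.8 and 31.03 CPM at D6 (log2 2.27 ± 0.80, adjusted p = 0.0681, edgeR). In the labeled and chased libraries the mean difference of both was negative, but not in every pair of groups: over all 8 pairs the mean was lower at D6 in 3 for Mrpl41 and in 5 for Mrps18c, and both were higher at D6 at catabolic T0 and T1.

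Those other libraries, 41 in all, were compared by the mean difference over 7 pairs of groups, a comparison added after the data had been seen. All of them had received 4sU at the dose of their state, so that state and dose cannot be told apart in this comparison. There 44 of 77 tested members were lower at D6 and 1 was higher (edgeR), against 28.4% lower and 16% higher of 13172 genes. The 77 include 5 members that had too few reads for the test without 4sU, and the 44 include 2 of these, Mrps18b and Mrpl23. The median difference was -0.76 over the members and -0.43 over all genes tested. All 11 members called without 4sU were again called lower, as were 564 of the 579 genes of any kind. Leaving out 1 pair of groups at a time gave 38 to 43 members lower, and leaving out replicate 14 of D6 gave 45. Across the 8 pairs, the mean of 26 of 72 members was lower at D6 in every pair, against 18.1% of all genes, and that of 47 was lower in 7 or 8 pairs, against 29.9%.

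By p the first was Mrpl12 again (log2 -1.23 ± 0.11, adjusted p = 1.57e-13, edgeR), with 675 to 1494 CPM at D0 (median 791) and 127 to 605 CPM at D6 (median 338). Mrpl10 (-1.27), Mrpl42 (-1.42), Mrpl38 (-1.79), Mrps25 (-1.05) and Mrpl45 (-1.56) followed, on the log2 scale. Next came Mrps7, which binds the head of the small subunit RNA, at -1.29 and Mrpl17 at -1.37, both of them not called without 4sU (log2 -0.69 and -0.92 there). Of the members whose mean differences had opposite signs in the 2 sets, Mrps18c was called lower here (log2 -0.83 ± 0.35, adjusted p = 0.0478, edgeR, and 0.063 without replicate 14 of D6) and so was Mrps31 (log2 -1.11 ± 0.41, adjusted p = 0.0243, edgeR, against 1.09 ± 0.86 without 4sU), while Mrpl41 was not (log2 -0.95 ± 0.47, adjusted p = 0.102, edgeR).

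The exception was Mrpl14, a protein at the interface of the subunits. It had 38.2 to 104 CPM (median 56.5) in the other D0 libraries and 2.72 to 264 CPM (median 122) in the other D6 libraries. The ranges overlapped, and the mean difference was 1.13 ± 0.24 on the log2 scale (adjusted p = 7.3e-05, edgeR). Without 4sU it had 60.9, 109 and 55.7 CPM at D0 and 91.3, 173 and 137 CPM at D6, which was not called (log2 0.89 ± 0.42, adjusted p = 0.186, edgeR).

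**Figure D3:**
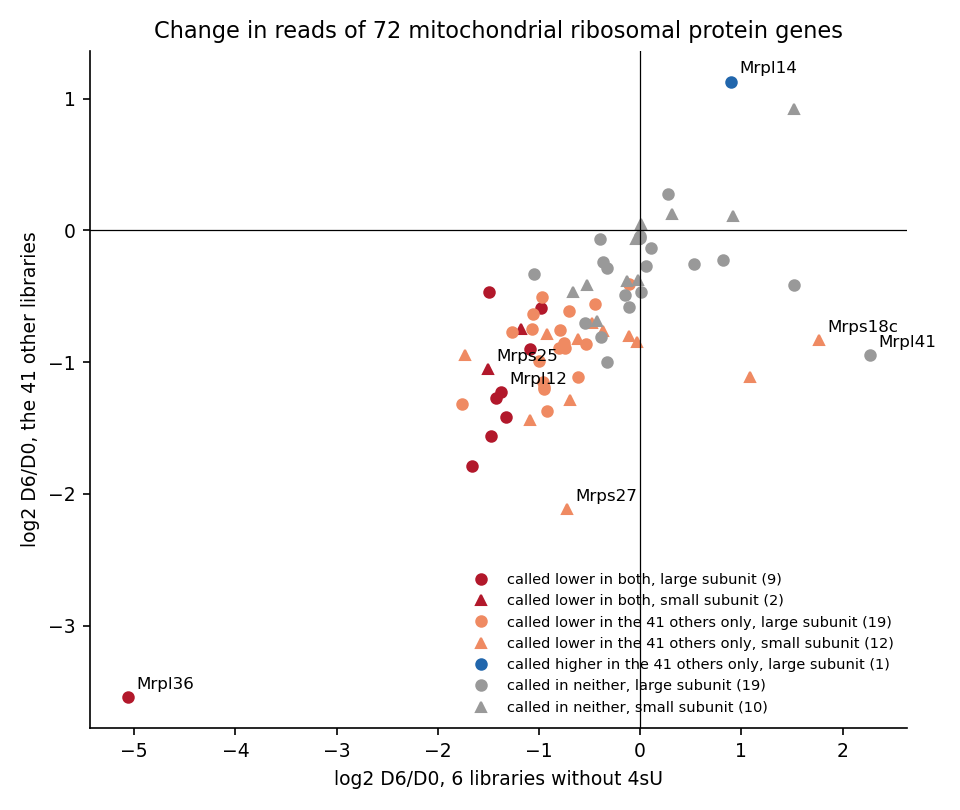
Log2 difference in reads, D6 minus D0, of each tested member in the libraries without 4sU (horizontal axis) and its mean over 7 pairs of groups in the other 41 libraries (vertical axis); each point is 1 of 72 genes, circles are the large and triangles the small subunit, and colors give the calls. Most points lie below 0 on both axes, Mrpl36 is farthest left at -5.06, and Mrpl14 lies above 0 on both.

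Calls were found in both subunits. Without 4sU, 9 of 48 tested genes of the large subunit were lower (median log2 -0.72) and 2 of 24 of the small subunit (median log2 -0.40), the latter near the 5.16% of all genes. In the other libraries 29 of 50 and 15 of 26 were lower, with medians of -0.75 and -0.76, against 28.4% of all genes. Members were also split by symbol number alone, at 36 for Mrpl and 21 for Mrps. Without 4sU, those up to these numbers, which are numbers of bacterial proteins, gave 6 of 40 lower. Those with higher numbers gave 5 of 32. The share of all genes called lower there was 5.16%. No difference between these classes was tested. The median length of the 3′ UTR was 296 bases over the tested members, from 19 to 6075, against 1132 over all 9174 genes tested for labeling. The T content was alike, at medians of 28.7% and 29.5%.

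Other genes of mitochondrial translation gave few calls without 4sU, where 5.16% of all genes were lower and 7.66% higher. None of 5 mitoribosome proteins with other symbols was called, 0 of 18 translation factors, 0 of 23 assembly factors and 0 of 17 mitochondrial tRNA synthetases (edgeR), with 2, 0, 1 and 2 genes at an unadjusted p under 0.05. In the other 41 libraries 1 of 5, 4 of 19, 7 of 23 and 7 of 17 of these were lower, and 1 assembly factor was higher, against 28.4% lower and 16% higher of all genes. Apart from the synthetases these shares of lower genes lay near or under that of all genes. Of 17 genes of mitochondrial DNA and RNA handling, Lrpprc, which stabilizes mitochondrial mRNAs, was lower without 4sU (log2 -1.36 ± 0.26, adjusted p = 0.000884, edgeR), and 7 were lower in the other libraries. Among 9 nuclear regulators tested without 4sU the coactivator Pprc1 was lower (log2 -2.62 ± 0.55, adjusted p = 0.00228, edgeR).

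Cytosolic ribosomal protein genes had a median of -0.42 without 4sU, with 8 of 72 lower against 5.16% of all genes, and of -0.72 in the other libraries, with 39 of 85 lower against 28.4%. Nuclear genes of oxidative phosphorylation, whose complexes hold the products of mitochondrial translation, had a median of 0.07 in both sets. Of these, 2 were higher and 1 lower of 78 without 4sU, against 7.66% and 5.16% of all genes, and 17 were higher and 10 lower of 80 in the other libraries, against 16% and 28.4%.

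Promoters of members were searched for letters of 3 factors known for nuclear genes of mitochondrial proteins, on both strands, from 250 bases before to 50 after the start in RefSeq (GRCm38.p6). The letters were CCGGAAG for ETS factors, GCATGCGC for NRF1 and AAGATGGCG for YY1. Matches of different factors may overlap, as may those of NRF1 on both strands. Promoters were matched for 69 members. ETS letters stood in 26 of them (37.7%), NRF1 letters in 8 (11.6%) and YY1 letters in 8 (11.6%). Over the 9036 genes tested for reads that had a promoter the shares were 20.8%, 6.34% and 3.81%, and over all 27025 genes with a promoter 9.93%, 3.05% and 1.64%. No promoter was matched for Mrpl38, Mrpl4 and Mrps34, which were also called lower. Letters of any of the 3 factors stood in 52.2% of the members with a promoter, against 28.4% of the genes tested for reads. They stood in 4 of 8 members called lower and in 28 of 55 tested members not called. The windows below are those of the 4 members called lower that held such letters. They are shown 5′ to 3′ on the gene's strand with the matched letters in capitals.
Mrpl10, chr11:97041437-97041466, plus strand, NRF1 letters from 134 bases before the start: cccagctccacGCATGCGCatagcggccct
Mrpl18, chr17:12916312-12916341, minus strand, ETS letters from 240 bases before the start: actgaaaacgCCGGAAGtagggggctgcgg
Mrpl36, chr13:73330968-73330997, plus strand, YY1 letters of the opposite strand from 31 bases before the start: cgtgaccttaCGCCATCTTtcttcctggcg
Mrpl42, chr10:95501903-95501932, minus strand, YY1 letters at 27 bases after the start: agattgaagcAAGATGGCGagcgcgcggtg

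Labeling for 15 h was compared with no 4sU on reads before rates were read. No member was called in either state, against 0.0356% of all genes at D0 and 0.0356% at D6, and none for the difference of the effects, against 0.0089% (edgeR). These comparisons share the unlabeled libraries with the first one. At an unadjusted p under 0.05 there were 2 members at D0, 4 at D6 and 2 for the difference. Of 77 members, DESeq2 called 0, 1 and 0. The smallest p at D0 was that of Mrpl10 (log2 -0.88 ± 0.35, adjusted p = 1, edgeR). At D6 it was that of Mrpl36 (log2 4.43 ± 1.25, adjusted p = 0.474, edgeR), which DESeq2 called (log2 4.49, adjusted p = 0.00247). The difference of the effects for Mrpl36 was 4.51 ± 1.59 (adjusted p = 0.991, edgeR).

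Label was detected in most members. The conversion rate, T>C conversions per covered T, had a median over the members of 0.105% without 4sU and 1.34% after 15 h at D0, and of 0.0236% and 4.83% at D6. Rates were higher after 15 h in 38 of 72 members at D0 (edgeR), against 54.8% of all genes, and in 65 of 72 at D6, against 77%. At D0 the share of members called lay near that of all genes, and at D6 it lay above it, a difference that was not tested.

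Label was clear in Mrpl12 and Mrpl34, the members with the most reads. Among 64 members with a mean coverage of at least 3000 T positions, 35 passed the test at D0 and 58 at D6 (edgeR). Mrpl12 had rates of 0.0296, 0.0878 and 0.00486% without 4sU and 1.23, 1.16 and 1.67% after 15 h at D0 (log2 5.05 ± 1.07, adjusted p = 0.00232, edgeR). At D6 it had 0.0713, 0.00672 and 0.0160% without and 4.42, 5.31 and 3.55% with label. Mrpl34 had 0.318, 0.245 and 0.305% without and 1.32, 1.87 and 1.63% with label at D0 (log2 2.48 ± 0.51, adjusted p = 0.00199, edgeR).

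In each case every labeled library was above every unlabeled one, though Mrpl34 kept a rate without 4sU that was far above the median of the members. At D6 Mrpl34 rose from 0.297, 0.0825 and 0.349% to 6.68, 5.94 and 3.57% (log2 4.47 ± 0.56, adjusted p = 6.9e-06, edgeR). Mrpl27 at D0 (log2 7.69 ± 1.63, adjusted p = 0.00232, edgeR), Mrpl17 at D6 (log2 8.34 ± 1.31, adjusted p = 7.86e-05, edgeR) and Mrpl11 at D6 (log2 2.99 ± 0.49, adjusted p = 0.000114, edgeR) were the other members with the smallest p. Mrpl11 had 0.953, 0.971 and 0.615% at D0 and 0.619, 0.524 and 1.08% at D6 without any 4sU. What gives rise to conversions without 4sU in these 3′ UTRs was not tested.

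Pooled over the members, the share of the rate left after a 9 h chase was 30.3, 29.9 and 32.8% in the D0 libraries, with a mean of 31.02 ± 1.58% (SD, n = 3). In the D6 libraries it was 19.7, 17.9 and 14.8%, with a mean of 17.5 ± 2.51% (SD, n = 3). The groups did not overlap. For whole libraries the means were 29.2 ± 1.16% at D0 and 19.1 ± 1.35% at D6, on either side of those of the members. With the rate of unlabeled cells subtracted, the pooled share of the members was 19.4% at D0 and 14.4% at D6, so that the D0 value fell by more than 1.5 times. That rate averaged 0.209% in the members and 0.171% in whole libraries at D0, and 0.177% and 0.166% at D6. It was not subtracted from the library means, so that members and libraries are compared only without subtraction.

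**Figure D4:**
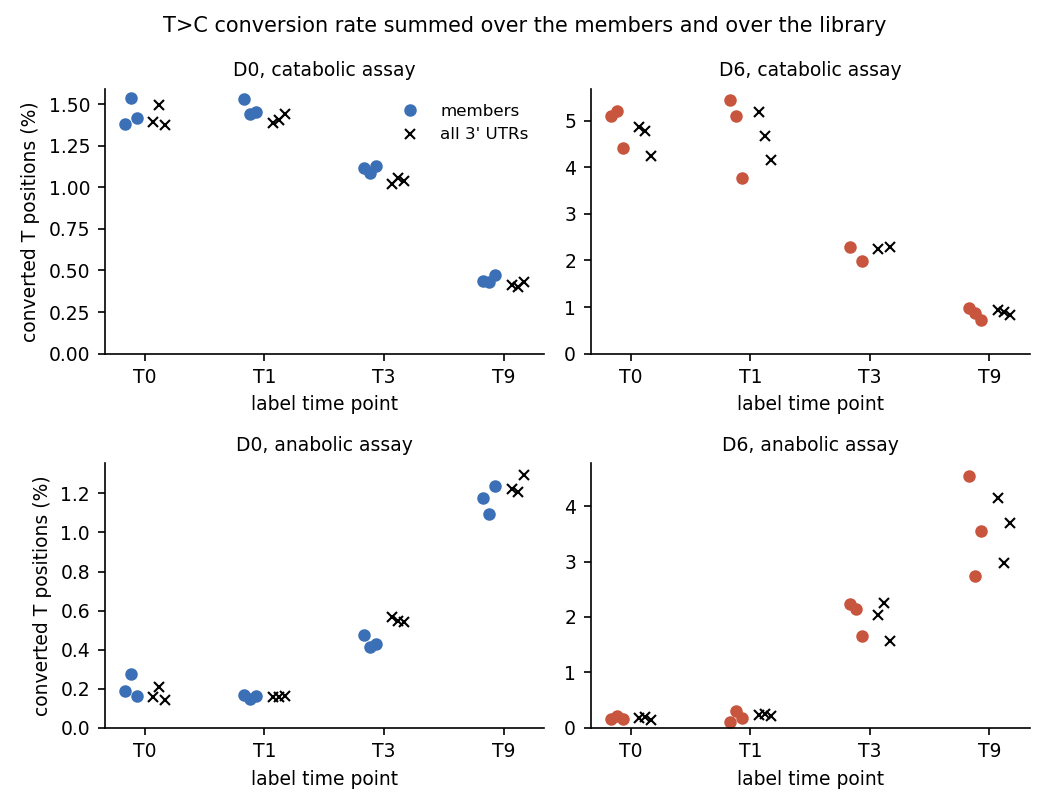
Conversion rate (percent of covered T positions read as C, linear axes from 0 that differ between panels) at each label time point in the catabolic and anabolic assays at D0 and D6; circles are the rates pooled over the members and crosses those of all 3′ UTRs, 1 of each for a library. In the catabolic assay the pooled rate of the members falls to 31.02% of its T0 value at D0 and to 17.5% at D6.

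Single members were far less precise. The median share left over 72 members was 30.2% at D0 and 15.2% at D6, against 17.1% and 11.4% over all genes. With the rate of unlabeled cells subtracted, these medians were 16.1% and 13.01% over the members and 9.72% and 8.67% over all genes, so that most of the difference between the states in the members' median was not kept. That rate was higher in the members at D0, with a median of 0.105% against 0.0223% over all genes, than at D6 (0.0236% and 0.0228%). The median coefficient of variation between the 3 chased libraries was 58.6% at D0 and 94.5% at D6. At D6, 24 members had a library with no conversion at T9, and 4 had a library with no coverage. The share left was lower at D6 in 54 of 72 members, and in 5183 of all 9174 genes. In 14 of 72 members every D6 library was below every D0 library, against 13.2% of all genes, and no more is read from that count.

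No member passed the test of label left after 9 h, D6 minus D0, against 0.338% of all genes, nor the same test relative to the rate of the whole library, against 0.0436% (edgeR). At an unadjusted p under 0.05 there were 10 and 7 members, and DESeq2 called 4 and 0. Without T9 replicate 16 of D6 edgeR called 3 and 2. The first by p was Mrpl58, the stalled ribosome rescue protein. Its rate went from 1.08, 0.953 and 0.675% to 0.481, 0.442 and 0.467% at D0 and from 4.59, 5.44 and 4.80% to 0.0205, 0.257 and 0.445% at D6. The D0 libraries kept 51.3 ± 2.19% (SD, n = 3) of the rate while those of D6 kept 4.87 ± 4.30% (SD, n = 3), without overlap (log2 -3.41 ± 1.02, adjusted p = 0.138, edgeR; adjusted p = 0.00657, DESeq2). Relative to the library the first was Mrpl39, a protein of the large subunit (log2 -5.70 ± 2.01, adjusted p = 0.236, edgeR).

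Within D6, 4 members lost more label in 9 h than the library as a whole and 0 lost less, against 1.87% and 1.05% of all genes (edgeR). DESeq2 called 9 that lost more and 1 that lost less. Leaving out 1 library gave 1 member without T0 replicate 7 or 8 of D6, and 2 members without T0 replicate 9 or T9 replicate 18 of D6 or T0 replicate 25, 26 or 27 of D0. Without T3 replicate 14 of D6 there were 6. Mrps22, a small subunit protein found in mitochondria alone, had 8.90, 9.92 and 7.21% at T0 and 0.0130 and 0.0357% at T9, with no coverage in the remaining library (log2 -6.27 ± 1.41, adjusted p = 0.0109, edgeR). Mrpl39 had 9.02, 8.32 and 6.20% at T0 and 0, 0.0401 and 0% at T9 (log2 -6.68 ± 1.67, adjusted p = 0.0232, edgeR). Both were near 0 after the chase. Mrpl12, with far more coverage, kept 6.25, 7.77 and 1.00% of its rate (log2 -1.96 ± 0.55, adjusted p = 0.0437, edgeR), and Mrpl24 was the last (log2 -5.95 ± 1.70, adjusted p = 0.0493, edgeR).

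Within D0 no member differed from its library, against 3.25% of all genes (edgeR), with 6 members at an unadjusted p under 0.05, 3 called by DESeq2 (2 that lost more and 1 that lost less) and 1 called without T9 replicate 36 of D0. Mrps22 had the smallest p there too (log2 -2.81 ± 0.92, adjusted p = 0.0881, edgeR), and kept 0.454, 2.40 and 9.39% of its rate. Mrpl12 at D0 kept 13.6 ± 9.06% (SD, n = 3), and its mean at D6 was 5.01 ± 3.55%. The difference between states for Mrpl12 was -1.45 ± 0.76 on the log2 scale (adjusted p = 0.416, edgeR), so that a difference of its loss between the states was not shown.

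**Figure D5:**
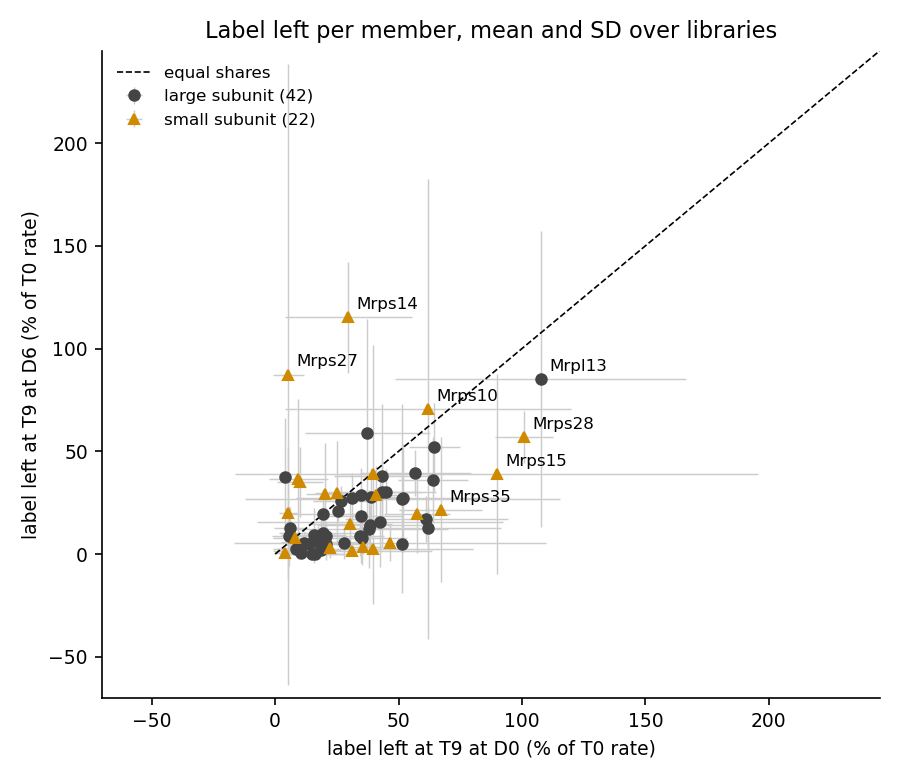
Share of the conversion rate left after a 9 h chase (percent of the mean rate at T0) at D0 (horizontal axis) and D6 (vertical axis) among the 64 members with at least 3000 T positions of coverage; points are means over the libraries with coverage (3, or 2 for Mrps22 at D6), gray bars are SDs, symbols give the subunit and the dashed line marks equal shares. Most points lie under the line, with bars that reach across it, and Mrps14 at 29.7% and 115% lies far above it.

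At the ends of the range, among the 64 members with a mean coverage of 3000 T positions or more, the lowest shares left at D0 were those of Mrpl19 (4.06 ± 2.26%), Mrps22 (4.08 ± 4.70%), Mrps9 (5.21 ± 3.50%) and Mrps27 (5.23 ± 6.26%). The highest were those of Mrps35 (67.2 ± 16.8%), Mrps15 (89.7 ± 106%), Mrps28 (101 ± 11.7%) and Mrpl13 (108%). Mrps28 was at 91.3, 114 and 97.3%, relative to a mean at T0 to which D0 replicate 26 brought 3 reads, against 413 and 490 in the others. Mrps15, by contrast, rested on 1 library at 212%, and Mrpl13 was at 109, 166 and 48.1%.

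At D6 the lowest were Mrpl39 (0.171 ± 0.295%), Mrpl24 (0.242 ± 0.248%), Mrps22 (0.281 ± 0.185%, n = 2) and Mrpl47 (0.734 ± 0.701%), and the highest were Mrps10 (70.5 ± 112%), Mrpl13 (85.2 ± 71.9%), Mrps27 (87.2 ± 151%) and Mrps14 (115 ± 27.03%). Mrps14, a small subunit protein with a bacterial counterpart, was at 103, 96.4 and 146%, the last in D6 replicate 18 with 7 reads, against 185 and 161 in the others, while the value of Mrps27 came from 1 library at 262% and the others at 0. Mrps27 had 192, 20 and 1 reads in the D6 libraries at T9, and Mrps10 had 64, 9 and 28. Mrpl13 was high in both states, and Mrps22 was low in both.

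Uptake was read as the rate after 9 h of label over that after 15 h. Pooled over the members the D0 libraries gave 81.3, 75.8 and 85.6%, a mean of 80.9 ± 4.88% (SD, n = 3). The D6 libraries gave 92.7, 55.6 and 72.3%, a mean of 73.5 ± 18.6% (SD, n = 3). For whole libraries the means were 87.5% and 77.8%. The groups overlapped. The median over single members was 84.3% at D0 and 64.8% at D6. The D6 library of replicate 53 stood apart with a median of 1.59%. Without it the median at D6 was 84.0%, and without replicate 52 it was 42.98%. In 11 of 72 members every D6 library was below every D0 library, against 21.4% of all genes.

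No member passed the test of uptake, D6 minus D0, nor that relative to the library, and neither did any of the 9174 genes (0% and 0%, edgeR). At an unadjusted p under 0.05 there were 0 and 2 members. The smallest p-values were those of Mrpl19 (log2 1.95 ± 0.99, adjusted p = 0.692, edgeR) and, relative to the library, Mrpl49 (log2 1.24 ± 0.54, adjusted p = 0.625, edgeR). Among the 64 members with enough coverage, the lowest ratios at D0 were those of Mrps16 (26.1%), Mrps14 (26.6%), Mrps15 (39.6%) and Mrpl49 (42.6%), and the highest those of Mrpl1 (142%), Mrps30 (155 ± 16.2%), Mrpl15 (166 ± 37.3%) and Mrps35 (206 ± 62.9%). Mrps30, Mrpl15 and Mrps35 exceeded 100% in each D0 library.

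Ratios at D6 were wide. Among the same 64 members the lowest were Mrps27 (0%), Mrpl57 (7.78%), Mrpl44 (16.05%) and Mrpl28 (17.1%), and the highest Mrpl14 (169%), Mrps24 (193%), Mrps9 (233%) and Mrpl19 (315 ± 327%). Mrpl19 was at 154, 691 and 100%, so that its mean rested on 1 library. Below that coverage Mrpl36 reached 573%, as the mean of 1147 and 0% in 2 libraries.

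Half-lives were fitted as the study did, by least squares to an exponential over 0, 3, 6 and 9 h, and kept when R2 was over 0.6. The labels give the time points between as 1 and 3 h, so that each half-life depends on which hours hold. A decay half-life was kept for 10 of 72 members at D0 (median 348 min, against 286 min over 1308 genes) and 12 at D6 (median 217 min, against 239 min over 1154 genes). These medians depend on the fit: with no minimum of R2 they were 589 min over 64 members at D0 and 354 min over 55 at D6, and with the hours of the labels 248 min over 16 members and 114 min over 17. A synthesis half-life was kept for 15 members at D0 (median 452 min, against 421 min over 1958 genes) and 4 at D6 (median 481 min, against 382 min over 791 genes). With the hours of the labels these were 261 min over 41 members and 244 min over 12.

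In 3 members a decay half-life could be kept at D0 and at D6, and each was shorter at D6. Mrpl12 went from 382 to 232 min, Mrps12, a protein of the decoding center, from 403 to 229 min, and Mrpl49, of the large subunit, from 223.01 to 204 min. Mrps23 alone had a synthesis half-life in both, 371 min long at D0, with 399 min for D6. No test was made on these. Fitted to the pooled rate of the members, the decay half-life with the hours of the study was 575 min (R2 of 0.671) at D0 and 343 min (R2 of 0.742) at D6. With the hours of the labels these were 381 min (R2 of 0.925) and 211 min (R2 of 0.883). Without T3 replicate 14 the D6 values were 345 and 223.8 min. Whole libraries gave 528 and 373 min with the hours of the study. For synthesis the pooled fit gave 419.5 min at D0 and 429.5 min at D6, or 273 and 279 min with the hours of the labels.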

How the data were processed

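SLAM-seq libraries of P19 cells were made by the authors with the QuantSeq 3′ FWD kit. They were mapped to mm10 with SLAMdunk, and conversions were counted over 3′ UTR intervals. The deposited table of each library holds, per interval, read counts, counts of covered T and of T>C conversions, the conversion rate as a fraction, and CPM. All multimapped counts were 0. Counts were used here. The deposited fraction and the authors' CPM were not used, and rates were recomputed from summed counts.

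Intervals (39419) were summed per transcript, and 1 NM transcript per gene was kept. Reads were tested with edgeR 4.0.16 (R 4.3.3; TMM, filterByExpr, quasi-likelihood) in 12 libraries, and conversions with log covered T as offset, at an adjusted p of 0.05. "Relative to the library" adds the library's rate to the offset. DESeq2 1.42.0 was an alternative. The read test of D6 against D0, the test of label left relative to the library between states and the half-life fits were also run on simulated data. The other tests were not. Libraries carry no shared replicate numbers, and no pairs were used. Reads had no molecular identifiers, so intervals of counting error are not given.

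Members and lists were chosen with earlier results of these data known. Named were up to 8 members per direction with the smallest p in reads D6 vs D0, up to 3 per direction (else the first) in other tests, the 4 highest and lowest shares and uptake ratios, the 3 with most and fewest reads, and members with roles of their own.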

Additional observations from a re-analysis of the deposited data

Results flagged for a closer look

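Mrpl58 stood out because the share of label left relative to the library moved in opposite directions in the 2 states. After 9 h, every D0 library was above the share of the whole library and every D6 library below it, and the mean log2 difference, D6 minus D0, was -3.65. In the model fitted over all genes the same difference was -2.74 ± 1.02 (adjusted p = 0.267, edgeR), which did not pass the threshold. The rate at D6 after the chase was 0.0205, 0.257 and 0.445%, and the cause was not tested.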

How the results depend on the processing

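Among the members named by the rules above, no called value changed sign under the alternatives run. Signs of other called members were not followed. Mrpl34, not called in reads without 4sU, turned from a log2 of -0.11 to 0.08 without D6 replicate 39 and without D0 replicate 56. Of the counts and shares over members, 362 values stayed near the reported one (counts within 1.5 times, shares and medians within 1 SD of the libraries) and 47 moved, and of the values of named genes 690 kept direction and side of the threshold, 37 lost the threshold, 6 gained it and 2 moved; the cause was not tested. DESeq2 called 1 member higher in reads without 4sU, 1 for 4sU against none at D6, 4 for label left between states (all lower at D6), and 3 at D0 and 10 at D6 relative to the library, of which 1 and 1 had lost less. The slope over the label hours gave 2 at D0 and 2 at D6, and a minimum of 300 covered T gave 2 at D6. Subtracting the rate of unlabeled cells moved the share left at D0 to 16.1% (median) and 19.4% (pooled), and at D6 to 14.4% (pooled). Members with a decay half-life numbered 16 with the label hours, 34 with 0 and 9 h alone and 64 with no minimum of R2 at D0, and 45 and 55 under the last 2 at D6. For synthesis these were 41, 30 and 71 at D0 and 12, 12 and 62 at D6. Leaving out 1 library gave 5 to 12 members lower in reads and a median log2 of -0.64 to -0.51, with 0 to 3 members for label left between states, 0 to 2 relative to the library, 0 to 1 at D0 and 1 to 6 at D6. It gave a median share left at D0 of 24.6 to 31.9%, and 9 (without T9 replicate 70) to 22 synthesis half-lives at D0 and 3 to 9 at D6, with 7, 9 and 8 without T1 replicate 40, T3 replicate 45 and T9 replicate 53. No paired analysis was possible because the libraries of the groups compared share no replicate numbers. Low coverage limits single members: 24 had a D6 library with no conversion after the chase.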
